A study of Arabidopsis thaliana with 12 samples.

Results

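UDP-dependent glycosyltransferases (UGTs) outside flavonoid synthesis were chosen by locus, as 51 genes of UGT families 71, 72, 73, 74, 75, 76, 84, 85 and 87 among the 33602 loci of the count table. Leaves of 3-week-old Arabidopsis thaliana (ecotype Columbia-0) had been taken from the double mutants cat2-2 gox1 and cat2-2 gox2, called cat2 gox1 and cat2 gox2 from here on. Both lines carry cat2-2, a mutation of the peroxisomal catalase gene CAT2, and no wild type entered these comparisons. Each line was sampled while growing at 3000 ppm CO2 and a light level of 120 µmol (high CO2), or 3 h after transfer to air with 400 ppm CO2 and a light level of 1200 µmol (high light). Light, CO2, humidity, growth chamber and time changed together, so that their parts in a difference cannot be told apart. Each of the 4 groups had 3 libraries, named biological repeats by the labels, and every library was made from pooled middle-aged leaves of 15 plants.

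UGTs move a sugar, usually glucose from UDP-glucose, onto a small acceptor molecule, which makes the acceptor more soluble and often inactive or ready for storage in the vacuole. In leaves their acceptors include plant hormones such as auxin, cytokinins, abscisic acid, brassinosteroids and salicylic acid, phenylpropanoids, precursors of glucosinolates, and foreign compounds. Catalase removes the hydrogen peroxide that glycolate oxidases, encoded by GOX1 and GOX2 among others, release during photorespiration, which is low at high CO2 and starts on transfer to air.

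The libraries held 19571516 to 25314811 counts, and levels are given as CPM, the usual scaling of counts to library size, with libraries adjusted by edgeR's TMM method. The mutated genes were looked at first. GOX1 had 128 to 284 CPM in the 6 cat2 gox1 libraries and 943 to 2197 CPM in the 6 cat2 gox2 libraries. GOX2 had 451 to 1199 CPM in cat2 gox1 and 6.98 to 16.8 CPM in 5 of the cat2 gox2 libraries, but 121.8 CPM in the library labelled replicate 2 of cat2 gox2 after high light. CAT2 is mutated in both lines and checks no label. Summed mesophyll markers lay between 13938 and 59209 CPM and summed root markers at 0.0794 CPM or less in every library, with 1 of 3 root markers at 0 throughout, as the leaf label states. Under high CO2 the number 3 libraries stood apart, with the members' median 0.36 (cat2 gox1) and 0.22 (cat2 gox2) higher on the log2 scale than in the other libraries, against 0.00 and -0.01 for all genes. After high light the number 3 library of cat2 gox1 had the members' median 0.39 lower, a log2 shift of -0.39 against 0.01 for all genes. The parts of these libraries in the results were not tested, and values without them are given where they matter.

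The light response was large for most of these genes in both lines, and upward more often than downward. Of the 51 members, 43 had enough counts to be tested. Of those, 27 rose and 4 fell in cat2 gox1, and 27 rose and 8 fell in cat2 gox2 (edgeR's quasi-likelihood test, two-sided, adjusted p under 0.05 by Benjamini-Hochberg over 18967 genes). These are 62.8% and 9.3% of the tested members in cat2 gox1, where 25.6% of all tested genes rose and 26.5% fell. In cat2 gox2 they are 62.8% and 18.6%, where 27.7% of all tested genes rose and 29.2% fell. The members' median log2 change was 2.27 in cat2 gox1 and 2.19 in cat2 gox2, whereas that of all tested genes was -0.06 and -0.09. In either direction 52.1% and 56.9% of all tested genes were called. The tested members include some, named with the UGT73 family below, that could be tested only through their high light libraries. The 3 libraries of high light and the 3 of high CO2 did not overlap for 31 of the 43 tested members in cat2 gox1 and for 38 in cat2 gox2, and the same was found for 58.7% and 63.3% of all tested genes. In bulk leaf, a change in the number of cells of a type and a change of RNA per cell cannot be told apart. The mesophyll markers fell alongside (3 of 4 in cat2 gox1, 4 of 4 in cat2 gox2), as did the epidermis markers (2 of 3 and 3 of 3). Of 4 guard cell markers 1 rose and 2 fell in each line, and of 3 phloem companion cell and 3 dividing cell markers 2 and 1 fell in cat2 gox1 and 0 passed the threshold in cat2 gox2. Their part in the members' changes was not tested.

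Of the tested members, 25 rose in both lines and 4 fell in both, while none moved in opposite directions. Another 2 (UGT84A3, UGT71C1) rose past the threshold in cat2 gox1 and 2 (UGT73D1, UGT84A1) in cat2 gox2, and 4 (UGT74B1, UGT76C1, UGT71B1, UGT71C4) fell past it in cat2 gox2, none of which passed the interaction test given further on in edgeR's fit. The remaining 6 (UGT76C2, UGT76D1, UGT85A2, UGT85A7, UGT71D1, UGT72E1) passed in neither line. Without the 4 number 3 libraries, UGT71D1 passed in cat2 gox1 at -0.58 (adjusted p = 0.037) and UGT85A2 at 0.55 (adjusted p = 0.0251). Among the 8 members not tested, UGT84B1, UGT84B2, UGT72E3 and UGT76E2 had no count in any library. UGT76E12 had 1 count in all, UGT75B2 had 6, UGT73C2 had 19 and UGT72E2 had 38 over the 12 libraries.

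**Figure D1:**
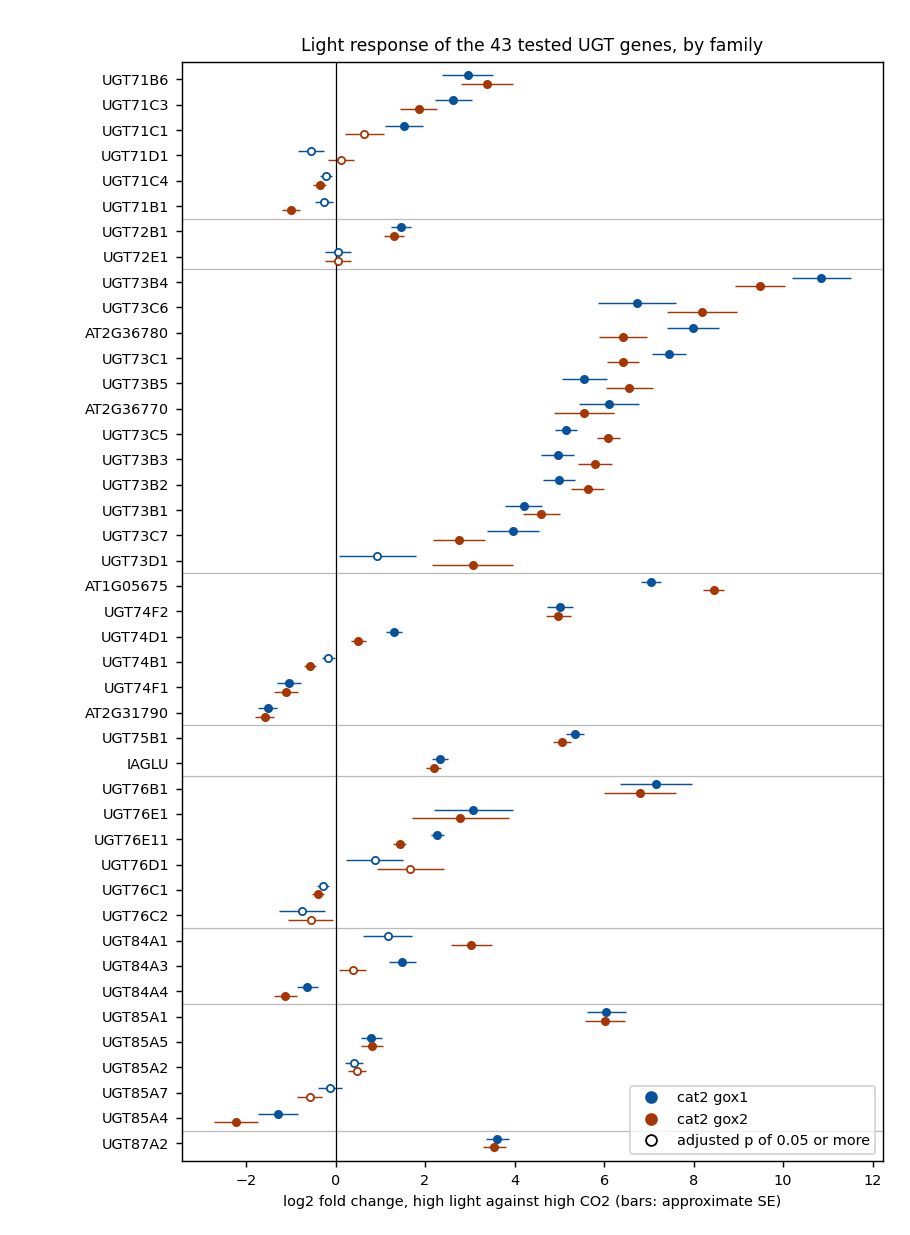
Log2 fold change of high light against high CO2 (x axis, points with approximate SE) for the 43 tested UGT genes (y axis, grouped by family), in cat2 gox1 (blue) and cat2 gox2 (brown). Open points had an adjusted p of 0.05 or more. The points of the UGT73 family lie to the right, reaching 10.85, while those of AT2G31790, UGT74F1, UGT84A4 and UGT85A4 lie left of 0 in both lines.

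The UGT73 family had the largest median response of the 9 families. In cat2 gox1, 11 of its 12 tested members rose, with a median log2 change of 5.36, and in cat2 gox2 all 12 tested members rose, with a median of 5.95. With members that had no counts under high CO2 set at a lower bound, and those with 1 to 3 counts at their ratio, the medians were 5.07 and 5.71. UGT73C6, UGT73B4, AT2G36770 and AT2G36780 had at most 0, 4, 5 and 9 counts in any high CO2 library. They had enough counts to be tested only through their high light libraries, so a fall of these genes could not have been tested. UGT73C7 and UGT73D1 also needed their high light libraries to be tested, since most of their high CO2 libraries had too few counts. The numbers of rising members and the medians include these UGT73 genes, with UGT73D1 rising past the threshold in cat2 gox2 only. Outside the family, UGT84A1, UGT76E1, UGT71C1 and UGT76D1 needed their high light libraries too. A fall of these and of UGT73C7 and UGT73D1 could hardly have been tested. UGT73B4, whose enzyme glucosylates reduced products of the explosive TNT, was close to silent under high CO2, with 0.104, 0 and 0 CPM in cat2 gox1 and 0.21, 0.0983 and 0.147 CPM in cat2 gox2. After high light it stood at 71.5, 94.8 and 34.3 CPM in cat2 gox1 and at 145, 86.8 and 104 CPM in cat2 gox2. The lowest library after high light, 34.3 CPM, thus lay far above the highest under high CO2, 0.21 CPM. Only 2 counts were seen in cat2 gox1 under high CO2, so the ratio is 2180, with a 95% interval of 604 to 18000 for counting error only. In cat2 gox2 the log2 change was 9.48 ± 0.57 (approximate SE, adjusted p = 2.09e-07).

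Its neighbour UGT73B5, needed together with UGT73B3 for full resistance to an avirulent Pseudomonas syringae strain, went from 1.23 to 4.88 CPM across the 6 high CO2 libraries to 93.5 to 295 CPM across the 6 high light libraries. The log2 changes of UGT73B5 were 5.56 ± 0.50 in cat2 gox1 and 6.56 ± 0.52 in cat2 gox2. UGT73B3 stood at 1.04, 1.57 and 1.87 CPM at high CO2 and at 46.9, 56.2 and 38 CPM after the light treatment in cat2 gox1. In cat2 gox2 it stood at 1.21, 0.983 and 3.19 CPM and at 105, 102 and 95.5 CPM. Neither line had overlapping groups, and the log2 changes of UGT73B3 were 4.96 ± 0.37 (adjusted p = 1.81e-06) and 5.80 ± 0.38 (adjusted p = 3.82e-07). UGT73B2 rose by 4.99 ± 0.36 and 5.63 ± 0.37, and UGT73B1 by 4.20 ± 0.41 and 4.60 ± 0.42, on the log2 scale.

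The UGT73C genes lie in a row of 6 members on chromosome 2. UGT73C5, whose enzyme glucosylates brassinosteroids and the fungal toxin deoxynivalenol, stood at 8.95, 7.85 and 12.8 CPM at high CO2 and at 370, 393 and 292 CPM after the light treatment in cat2 gox1. In cat2 gox2 its levels were 13.4, 9.05 and 12.8 CPM and then 769, 750 and 888 CPM. All high light libraries lay above all high CO2 libraries, and the cat2 gox2 libraries lay above those of cat2 gox1 after high light. The log2 changes of UGT73C5 were 5.15 ± 0.25 (adjusted p = 1.24e-07) and 6.09 ± 0.26 (adjusted p = 1.8e-08). UGT73C1, which can glucosylate cytokinins, rose by 7.45 ± 0.38 and 6.43 ± 0.36. AT2G36780 rose by 7.98 ± 0.58 and 6.42 ± 0.53 and AT2G36770 by 6.11 ± 0.67 and 5.55 ± 0.66. UGT73C6, another brassinosteroid glucosyltransferase, had no count under high CO2 and stayed low after high light, at 0.379 to 0.774 CPM in cat2 gox1 and 1.39 to 2.11 CPM in cat2 gox2, which is at least 13.5-fold and 33.7-fold higher against 3 counts over the group.

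The remaining UGT73 genes were low and varied more. UGT73C7 rose by 3.96 ± 0.58 in cat2 gox1 and by 2.76 ± 0.57 in cat2 gox2, although its level after high light in cat2 gox1 ranged from 1.6 CPM in the number 3 library to 9.91 CPM in number 2. UGT73D1, at 1.59 CPM or less in every library, had a log2 change of 0.93 ± 0.87 (adjusted p = 0.384) in cat2 gox1 and rose by 3.06 ± 0.91 (adjusted p = 0.0133) in cat2 gox2. Without the 4 number 3 libraries UGT73D1 passed in cat2 gox1 too, with a log2 change of 2.80 (adjusted p = 0.0361), and was at 4.65 in cat2 gox2. It passed there as well without the number 3 library of cat2 gox1 under high CO2 alone, at 3.17 (adjusted p = 0.0245).

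Sequence upstream of these genes was searched because the UGT73 members moved together. In the 250 bases before the annotated start of each gene (RefSeq annotation of TAIR10.1), the letters TGACG, or CGTCA for the other strand, form the core of the site known for TGA transcription factors. They were found for 6 of the 13 UGT73 genes (46.2%), for 7 of the 25 members that rose in both lines (28%) and for 5 of the other 26 members (19.2%), against 18.6% of the upstream sequences of 26711 protein-coding loci. TTGAC or its complement GTCAA, the core of the W box of WRKY factors, was present for 16 of the 25 (64%) and 14 of the other 26 (53.8%), against 45% of all. Both cores can overlap, in TTGACG. Neither the mitochondrial dysfunction motif (CTTG and CAAG with 5 bases between them) nor the heat shock element (GAA, TTC and GAA with 2 bases between each) was found for any of the 51 members, against 0.719% and 0.393% of all. With shares this low, 51 windows are too few to tell an absence from the share of all loci. A match is a description of the letters and not a bound site. The UGT73B4 window lies within an annotated transcript of UGT73B5, and the UGT73C5 window overlaps the gene AT2G36810. Many UGT73 genes are close relatives placed side by side, so their windows are not independent. The shares with TGACG and TTGAC rest on few windows and were not tested.

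The upstream sequences of the 4 UGT73B genes with the core, and of 2 members that were higher in cat2 gox2 after high light, are shown 5′ to 3′ on the gene's strand, with TGACG or CGTCA in capitals.
UGT73B4, chr2:6761385-6761634, plus strand: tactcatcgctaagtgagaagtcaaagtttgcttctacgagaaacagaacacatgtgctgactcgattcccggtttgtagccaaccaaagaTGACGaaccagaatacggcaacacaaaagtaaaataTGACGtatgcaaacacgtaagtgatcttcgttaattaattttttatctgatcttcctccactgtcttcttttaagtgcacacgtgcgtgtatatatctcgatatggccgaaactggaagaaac
UGT73B5, chr2:6758180-6758429, plus strand: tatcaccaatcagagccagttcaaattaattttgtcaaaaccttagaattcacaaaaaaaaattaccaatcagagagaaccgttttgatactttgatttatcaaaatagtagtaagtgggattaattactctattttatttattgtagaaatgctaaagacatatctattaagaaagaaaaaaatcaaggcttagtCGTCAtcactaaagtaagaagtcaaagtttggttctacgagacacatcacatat
UGT73B3, chr4:16344819-16345068, minus strand: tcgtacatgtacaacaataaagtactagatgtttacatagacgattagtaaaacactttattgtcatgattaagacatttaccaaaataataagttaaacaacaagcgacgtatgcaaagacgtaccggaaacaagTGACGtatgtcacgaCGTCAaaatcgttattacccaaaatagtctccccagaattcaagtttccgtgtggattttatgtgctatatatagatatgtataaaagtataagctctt
UGT73B1, chr4:16350204-16350453, minus strand: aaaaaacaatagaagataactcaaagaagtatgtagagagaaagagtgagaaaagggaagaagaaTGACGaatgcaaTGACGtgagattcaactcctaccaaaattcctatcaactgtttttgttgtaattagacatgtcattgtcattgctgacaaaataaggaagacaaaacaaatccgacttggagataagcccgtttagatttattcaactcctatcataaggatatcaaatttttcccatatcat
UGT84A1, chr4:8850517-8850766, minus strand: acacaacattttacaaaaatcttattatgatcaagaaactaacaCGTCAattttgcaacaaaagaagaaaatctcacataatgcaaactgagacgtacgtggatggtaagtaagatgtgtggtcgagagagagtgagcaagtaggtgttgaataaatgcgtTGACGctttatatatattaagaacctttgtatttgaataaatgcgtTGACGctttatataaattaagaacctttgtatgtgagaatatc
AT1G05675, chr1:1702750-1702999, minus strand: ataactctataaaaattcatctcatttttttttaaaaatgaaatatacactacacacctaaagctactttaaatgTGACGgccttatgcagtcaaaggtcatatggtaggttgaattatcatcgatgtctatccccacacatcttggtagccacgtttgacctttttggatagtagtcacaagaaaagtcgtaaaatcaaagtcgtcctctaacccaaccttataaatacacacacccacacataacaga

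The core was found at 159 and 123 bases before the start of UGT73B4, 54 before UGT73B5, 114 and 99 before UGT73B3, and 185 and 173 before UGT73B1. UGT84A1 held 3 copies, at 206, 89 and 43 bases, and AT1G05675 held 1 at 175 bases. Upstream windows without the core included those of UGT73B2 and UGT73C1, which rose in both lines, so that the core was not shared by all members that rose.

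In the UGT74 family members went both ways, with 3 of 6 rising and 2 falling in cat2 gox1 and 3 rising and 3 falling in cat2 gox2. AT1G05675 had 0.776, 0.739 and 0.794 CPM at high CO2 and 86.1, 122 and 101 CPM after the light treatment in cat2 gox1. Those of cat2 gox2 had 0.841, 0.59 and 0.491 CPM, and then 242, 188 and 243 CPM. All replicates of a group lay close together compared with the distance between conditions, and the log2 changes of AT1G05675 were 7.05 ± 0.22 (adjusted p = 1.75e-08) and 8.45 ± 0.24 (adjusted p = 2.72e-09). Its neighbour UGT74E2, which is not a member and encodes an indole-3-butyric acid glucosyltransferase, went from 0.565 ± 0.133 to 887 ± 325 CPM (SD, n = 3) in cat2 gox1 and from 1.92 ± 1.17 to 1651 ± 241 CPM in cat2 gox2.

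UGT74F2 and UGT74F1, which both form glucose conjugates of salicylic acid, lie next to each other on chromosome 2 and changed in opposite directions. The pair was singled out after its values were seen. UGT74F2 rose from 16.9, 15.3 and 12.9 CPM to 537, 625 and 290 CPM in cat2 gox1 and from 12.4, 11.6 and 13.8 CPM to 460, 335 and 394 CPM in cat2 gox2, by 5.01 ± 0.29 and 4.98 ± 0.29 on the log2 scale. UGT74F1 went from 1.5, 1.66 and 1.35 CPM to 0.988, 0.553 and 0.632 CPM in cat2 gox1 and from 1.74, 1.23 and 1.38 CPM to 0.666, 0.766 and 0.568 CPM in cat2 gox2. The groups did not overlap for either gene, and the log2 changes of UGT74F1 were -1.04 ± 0.26 (adjusted p = 0.00663) and -1.11 ± 0.27 (adjusted p = 0.0046, or 0.0529 without the 4 number 3 libraries).

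AT2G31790 was the member with the highest level per length under high CO2 and fell in both lines. It stood at 183, 176 and 167 CPM at high CO2 and 83.2, 44.1 and 55.8 CPM after the light treatment in cat2 gox1, and at 180, 220 and 181 CPM and then 71.8, 69.7 and 53 CPM in cat2 gox2. Every high light library was below every high CO2 library, with log2 changes of -1.52 ± 0.21 (adjusted p = 0.000158) and -1.58 ± 0.21 (adjusted p = 9.05e-05). UGT74B1, which glucosylates thiohydroximates in glucosinolate synthesis, changed by -0.16 ± 0.14 (adjusted p = 0.329) in cat2 gox1 and fell by 0.57 (log2 change -0.57 ± 0.14, adjusted p = 0.00405) in cat2 gox2. UGT74D1, an auxin glucosyltransferase, stood at 26.5, 23.4 and 18.7 CPM at high CO2 and 50.4, 50.8 and 67.8 CPM after the light treatment in cat2 gox1. In cat2 gox2 it stood at 22.8, 21.5 and 17.8 CPM and at 30.2, 24.5 and 33.9 CPM. The groups of UGT74D1 did not overlap in either line, with log2 changes of 1.30 ± 0.18 (adjusted p = 0.000131) and 0.51 ± 0.18 (adjusted p = 0.0281). The latter missed the threshold when any of 4 libraries of cat2 gox2 was left out, with adjusted p up to 0.112 without replicate 3 of cat2 gox2 after high light.

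Both tested UGT75 genes rose in both lines. UGT75B1, known from the callose synthase complex and as a glucosyltransferase of p-aminobenzoate, stood at 5.49, 5.13 and 3.93 CPM at high CO2 and 194, 242 and 158 CPM after the light treatment in cat2 gox1. In cat2 gox2 the values were 5.21, 5.21 and 4.91 CPM, and then 183, 148 and 181 CPM. No library of one condition came near the other, and the log2 changes of UGT75B1 were 5.35 ± 0.20 (adjusted p = 3.34e-08) and 5.06 ± 0.20 (adjusted p = 1.48e-08). IAGLU, annotated as an indole-3-acetate glucosyltransferase, rose by 2.34 ± 0.18 and 2.19 ± 0.18 from 31.2 to 34.7 CPM under high CO2.

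UGT76 members included genes that rose from very low levels and genes that stayed near their level. UGT76B1, whose enzyme glucosylates isoleucic acid, salicylic acid and N-hydroxypipecolic acid and which dampens defence, stood at 0.155, 0.739 and 1.71 CPM at high CO2 and at 114, 182 and 97.1 CPM after the light treatment in cat2 gox1. The cat2 gox2 libraries stood at 2.26, 0.0492 and 0.54 CPM, and then at 147, 92.5 and 73.8 CPM. The high CO2 libraries of UGT76B1 were widely spread, yet all lay far below the high light libraries, and the log2 changes were 7.16 ± 0.81 (adjusted p = 3.44e-05) and 6.80 ± 0.81 (adjusted p = 3.37e-05). UGT76E11 stood at 36.3, 37 and 28.4 CPM at high CO2 and at 155, 184 and 152 CPM after the light treatment in cat2 gox1, and at 34.1, 38.8 and 34.6 CPM and then 98.6, 83.4 and 109 CPM in cat2 gox2. It rose in both lines without overlap, by 2.27 ± 0.15 (adjusted p = 7.37e-07) and 1.43 ± 0.14 (adjusted p = 9.64e-06). UGT76E1, whose enzyme acts on a hydroxylated jasmonate, rose by 3.08 ± 0.88 and 2.79 ± 1.08 but never exceeded 2.23 CPM. Without the number 3 library of cat2 gox1 under high CO2 the former was 4.94, and the latter missed the threshold without 1 of 6 libraries, most without replicate 1 of cat2 gox2 after high light (adjusted p = 0.193).

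The cytokinin N-glucosyltransferases of the family had negative log2 changes. UGT76C1 had log2 changes of -0.28 ± 0.13 (adjusted p = 0.0971) and -0.39 ± 0.13 (adjusted p = 0.0261), and UGT76C2 of -0.76 ± 0.52 and -0.56 ± 0.51, neither past the threshold. UGT76C1 missed it in cat2 gox2 without 1 of 4 libraries of that line, with adjusted p up to 0.0881 without replicate 2 after high light, and also with DESeq2's size factors (adjusted p = 0.057) and DESeq2's test (adjusted p = 0.0631). UGT76D1, whose enzyme glucosylates dihydroxybenzoic acids, had log2 changes of 0.87 ± 0.64 and 1.67 ± 0.74, neither past the threshold. It passed in both lines without the 4 number 3 libraries, with 1.26 (adjusted p = 0.0355) and 2.85 (adjusted p = 0.00143), and its highest high CO2 levels, 1.15 and 0.54 CPM, were those of the number 3 libraries.

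Enzymes of the UGT84A group form glucose esters of hydroxycinnamic acids, precursors of sinapate esters. UGT84A2 of this group is not a member, and had mean levels of 59.7 and then 328 CPM in cat2 gox1. Its means were 66 and then 355 CPM in cat2 gox2. UGT84A3 was the most abundant of the members in the group. It went from 91, 79 and 154 CPM to 283, 285 and 342 CPM in cat2 gox1, a rise of 1.49 ± 0.30 on the log2 scale (adjusted p = 0.00188). In cat2 gox2 it stood at 115, 101 and 193 CPM and then at 193, 128 and 211 CPM, with overlapping groups (0.38 ± 0.30, adjusted p = 0.298). Without the 4 number 3 libraries UGT84A3 passed in cat2 gox2 as well, with 0.66 (adjusted p = 0.0138). UGT84A4 stood at 4.86, 5.22 and 6.11 CPM at high CO2 and at 2.58, 2.95 and 4.93 CPM after the light treatment in cat2 gox1, and at 5.57, 4.82 and 4.71 CPM and then 2.87, 2.25 and 1.87 CPM in cat2 gox2. Its groups overlapped in cat2 gox1, where 1 high light library reached the high CO2 levels, and not in cat2 gox2. UGT84A4 changed by -0.63 ± 0.24 (adjusted p = 0.0472) and -1.12 ± 0.25 (adjusted p = 0.00283), and the former missed the threshold when any of 9 libraries was left out, with adjusted p up to 0.158 without replicate 1 of cat2 gox1 after high light, and was -0.97 without replicate 3 of that group. It also missed the threshold with DESeq2's size factors (adjusted p = 0.0591), DESeq2's test (0.0554), no filter on low counts (0.0596) and only the groups compared (0.0951).

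UGT84A1 was expressed at a low level throughout. It stood at 0.207, 0.185 and 0.357 CPM at high CO2 and 0.903, 0.184 and 0.632 CPM after the light treatment in cat2 gox1, which rest on 4 to 21 counts a library. In cat2 gox2 the values were 0.473, 0.295 and 0.589 CPM, and then 3.43, 5.03 and 2.8 CPM. The 3 cat2 gox2 libraries after high light thus lay above all 9 others, with a rise of 3.03 ± 0.46 (adjusted p = 0.000199) in cat2 gox2 and a log2 change of 1.16 ± 0.55 (adjusted p = 0.0954) in cat2 gox1. The latter passed without replicate 2 of cat2 gox1 after high light, with 1.57 (adjusted p = 0.0162).

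A single member, UGT85A1, held most of the UGT85 sum after high light. UGT85A1, a trans-zeatin O-glucosyltransferase, stood at 7.61, 7.3 and 5.08 CPM at high CO2 and at 460, 648 and 213 CPM after the light treatment in cat2 gox1. In cat2 gox2 it stood at 11.3, 8.26 and 5.75 CPM, and then at 618, 455 and 564 CPM. The number 3 library of cat2 gox1 was the lowest after high light, and it still lay above every high CO2 library, with log2 changes of 6.05 ± 0.44 (adjusted p = 1.62e-06) and 6.02 ± 0.44 (adjusted p = 8.98e-07). After high light UGT85A1 made up 91.7% and 93.9% of the family's summed CPM, compared with 18.2% and 24% under high CO2. UGT85A5 rose by 0.80 ± 0.24 (adjusted p = 0.0171) and 0.81 ± 0.25 (adjusted p = 0.0166), calls that were lost without replicate 1 or 2 of cat2 gox1 under high CO2 or replicate 1 of it after high light (adjusted p = 0.0634, 0.0538 and 0.0772), and without replicate 2 of cat2 gox2 under high CO2 or replicate 3 of it after high light (adjusted p = 0.0685 and 0.0821), or without the 4 number 3 libraries (adjusted p = 0.0753). UGT85A4 stood at 1.09, 0.877 and 2.06 CPM at high CO2 and at 0.817, 0.553 and 0.295 CPM after the light treatment in cat2 gox1, and at 0.894, 1.67 and 1.62 CPM and then 0.41, 0.192 and 0.284 CPM in cat2 gox2. High light libraries were lower throughout in both lines, with log2 changes of -1.28 ± 0.45 (adjusted p = 0.0312) and -2.23 ± 0.49 (adjusted p = 0.00246). In cat2 gox1 the fall of UGT85A4 rested on the number 3 libraries, since it was -0.42 (adjusted p = 0.441) without all 4 of them and -0.80 (adjusted p = 0.149) without the high CO2 one, and it also missed the threshold without replicate 2 or 3 after high light (adjusted p = 0.0755 and 0.11) and with only the groups compared (adjusted p = 0.0654).

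UGT87A2, which acts on flowering time through FLC, stood at 22.3, 24.5 and 37 CPM at high CO2 and 285, 392 and 346 CPM after the light treatment in cat2 gox1. The cat2 gox2 libraries stood at 24.6, 22.9 and 34.6 CPM and at 362, 249 and 352 CPM. The ranges of the lines overlapped within each condition, and the log2 changes of UGT87A2 were 3.61 ± 0.26 (adjusted p = 1.51e-06) and 3.55 ± 0.26 (adjusted p = 8.79e-07). UGT72B1, which glucosylates chlorinated anilines and phenols and monolignols, stood at 161, 150 and 225 CPM and then 468, 539 and 474 CPM in cat2 gox1, and at 176, 160 and 274 CPM and then 513, 430 and 569 CPM in cat2 gox2. It was already abundant under high CO2 and rose without overlap by 1.47 ± 0.22 (adjusted p = 0.000272) and 1.31 ± 0.22 (adjusted p = 0.000446). UGT72E1, a glucosyltransferase of lignin precursors, had a log2 change of 0.05 ± 0.30 in both lines (adjusted p = 0.905 and 0.901).

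Of the 6 UGT71 genes, all tested, 3 rose in cat2 gox1, and 2 rose and 2 fell in cat2 gox2. UGT71B6, which glucosylates abscisic acid, stood at 1.04, 0.646 and 3.69 CPM at high CO2 and 13.1, 19.7 and 9.9 CPM after the light treatment in cat2 gox1. In cat2 gox2 the values were 1.58, 0.738 and 2.75 CPM, and then 20.3, 13.6 and 19.3 CPM. The number 3 library was the highest under high CO2 in both lines, and still below all high light libraries, with log2 changes of 2.95 ± 0.56 (adjusted p = 0.00123) and 3.39 ± 0.58 (adjusted p = 0.000463). UGT71C3, which glucosylates methyl salicylate, rose by 2.63 ± 0.42 and 1.86 ± 0.41. UGT71C1 rose by 1.53 ± 0.42 (adjusted p = 0.0105) in cat2 gox1 and had 0.64 ± 0.43 (adjusted p = 0.225) in cat2 gox2. Without the 4 number 3 libraries UGT71C1 passed in cat2 gox2 as well, at 1.29 (adjusted p = 0.0146). It also passed there without the number 3 library of cat2 gox2 under high CO2 alone, at 1.24 (adjusted p = 0.0333). UGT71B1, the most abundant by CPM of the members in the family, had a log2 change of -0.26 ± 0.21 (adjusted p = 0.303) in cat2 gox1 and fell 2.01-fold in cat2 gox2 (adjusted p = 0.00166). UGT71C4 changed by -0.21 ± 0.14 (adjusted p = 0.223) and -0.36 ± 0.14 (adjusted p = 0.0469). The last call held in 4 of 19 alternatives, at -0.18 (adjusted p = 0.35) without the 4 number 3 libraries and -0.25 (adjusted p = 0.164) without the number 3 library of cat2 gox2 under high CO2.

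**Figure D2:**
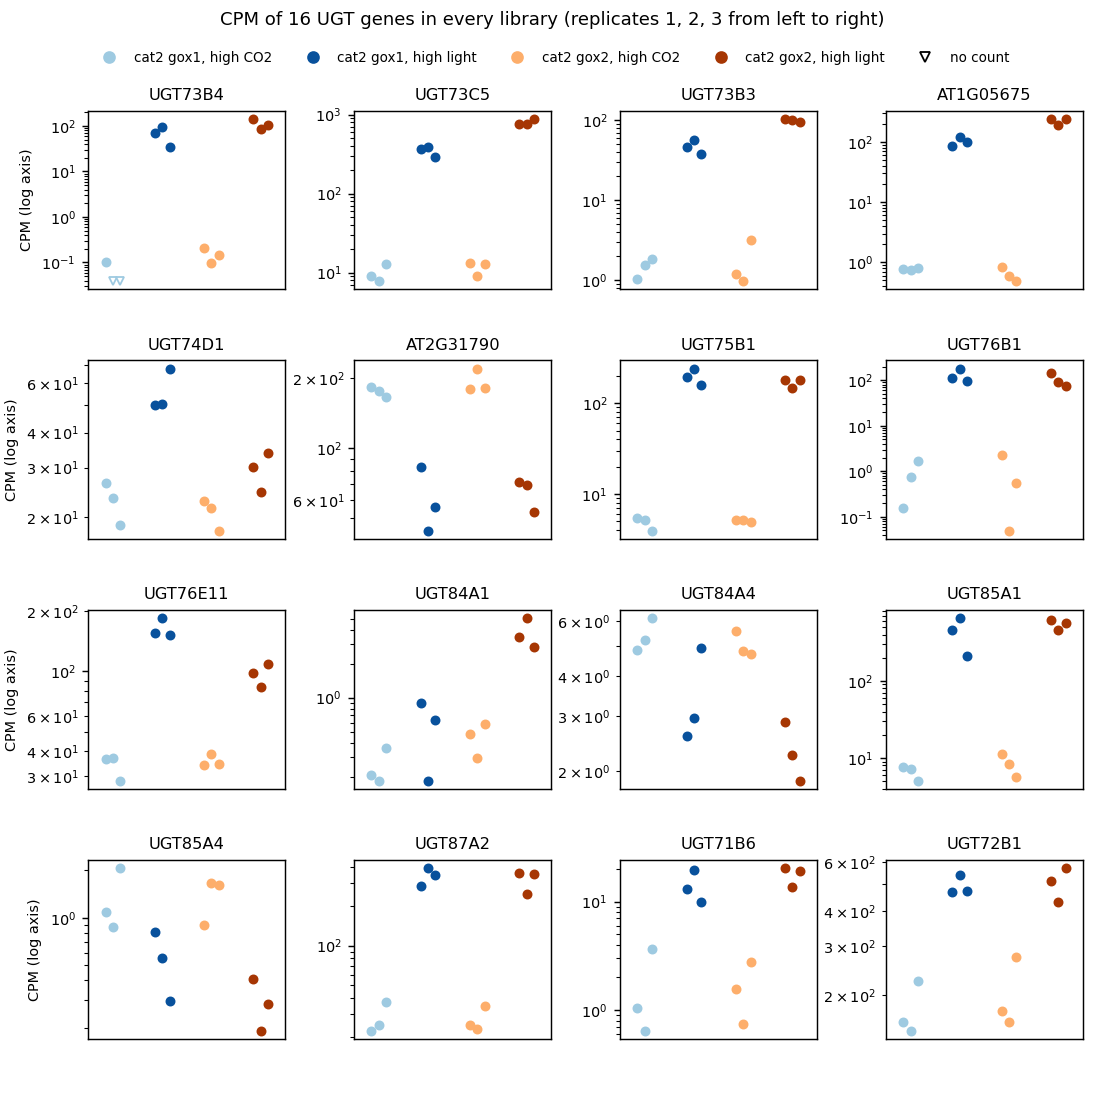
CPM (log axis) of 16 UGT genes in each of the 12 libraries, with replicates 1, 2 and 3 from left to right in each group of points and an open triangle where a library had no count. Dark points are high light and pale points high CO2, in blue for cat2 gox1 and in brown for cat2 gox2. UGT73B4 lies at 0.21 CPM or less under high CO2 and at 34.3 CPM or more after high light, whereas AT2G31790 is higher under high CO2 in every library.

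Summed over the 51 members, levels went from 947, 874 and 1102 CPM to 4518, 5542 and 3834 CPM in cat2 gox1 and from 975, 1000 and 1216 CPM to 5719, 4719 and 5738 CPM in cat2 gox2. The means were 4.75 and 5.07 times higher after high light. The UGT73 family had the highest ratio of the 9 families. Its sum was 35.7, 30.6 and 43.7 CPM at high CO2 and 1336, 1658 and 1100 CPM after the light treatment in cat2 gox1, and 41.5, 32.5 and 49.3 CPM and then 2366, 2094 and 2518 CPM in cat2 gox2. The means rose 37.2 and 56.6 times, and the cat2 gox2 libraries after high light lay above those of cat2 gox1. UGT85 rose 13.1 and 16.5 times, UGT87 12.2 and 11.7 times, UGT75 9.58 and 8.45 times and UGT76 5.7 and 3.81 times. Lower ratios were found for UGT84 (2.71 and 1.29), UGT74 (2.5 and 2.34) and UGT72 (2.44 and 2.27). For UGT71 the ratio was 0.987 and 0.77, and the high light and high CO2 libraries overlapped in cat2 gox1. These sums hold the members only, are dominated by a few genes and were not tested. They leave out genes of the same families that are not members. Of these, UGT74E2, UGT84A2 and UGT71C5 rose and UGT72B3 fell in both lines. UGT74E2 alone had means of 887 and 1651 CPM after high light, against 798 and 788.5 CPM for the UGT74 members together. Among the members, UGT84A3 alone held 95% to 98.7% of the UGT84 sum. UGT74F2 went from 4.71% to 60.7% of the members' UGT74 sum in cat2 gox1 and from 3.74% to 50.3% in cat2 gox2.

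**Figure D3:**
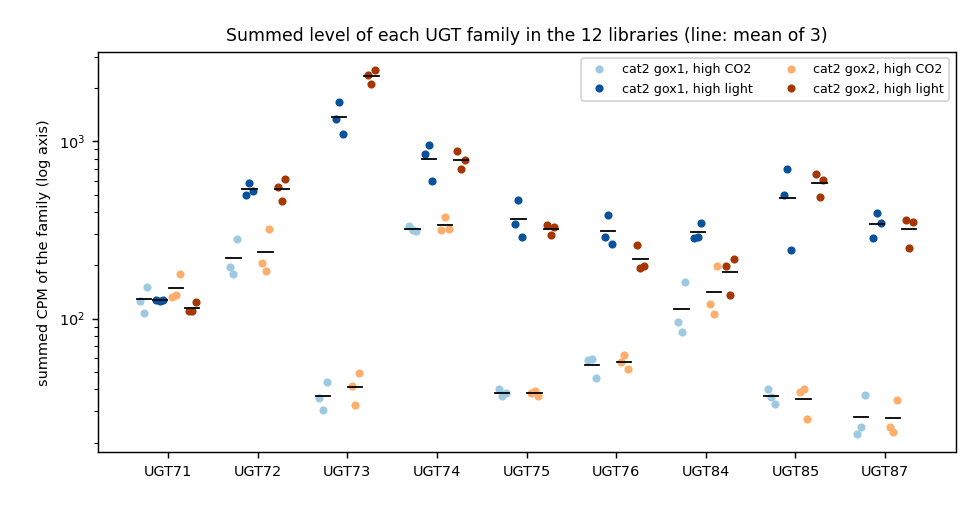
Summed CPM (log axis) of the members of each UGT family in each library, with 1 point per library and a line at the mean of 3. The UGT73 points go from at most 49.3 CPM under high CO2 to at least 1100 CPM after high light, and the UGT71 points of all 4 groups lie between 108 and 178 CPM.

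The order of the members by level per length (CPM per kilobase of exons) was led by AT2G31790 under high CO2 in both lines, with 107 ± 4.98 in cat2 gox1 and 118 ± 14.1 in cat2 gox2 (SD, n = 3), followed by UGT72B1 at 87.4 ± 19.7 and 99.5 ± 30. The libraries of these neighbours overlapped in both lines, so that their order is within the spread. After high light in cat2 gox1 UGT74F2 led at 278 ± 99.6, ahead of UGT72B1 at 242 ± 19.5, UGT85A1 at 218 ± 108 and UGT87A2 at 194 ± 30.5, each overlapping the next. In cat2 gox2 UGT73C5 led at 410 ± 38.3 and its lowest library, 383, was above the highest of UGT73B2, 360, which was second at 319 ± 41. Next came UGT85A1 at 270 ± 41.3 and UGT72B1 at 247 ± 34.2. None of UGT73C5, UGT73B2, UGT74F2 and UGT85A1 had been among the 5 highest under high CO2.

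Under high CO2 no member differed between the lines past the threshold, where 3 genes of all those tested (0.0158%) did by edgeR's test. At an unadjusted p under 0.05 edgeR found 0 members and DESeq2's test 1, and DESeq2 called 0 after adjustment. The median log2 difference of cat2 gox2 minus cat2 gox1 was 0.05, with a range from -1.14 for UGT76D1 to 2.12 for UGT73B4, both genes with few counts.

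After high light 4 members were higher in cat2 gox2 than in cat2 gox1 and 2 were lower, 9.3% and 4.65% of the tested members, where 5.27% and 1.28% of all tested genes were, or 6.55% together. UGT84A1 differed most, by 2.69 ± 0.44 on the log2 scale (adjusted p = 0.00396), as its per-library levels given above show. UGT73C5 was higher by 1.19 ± 0.21 (adjusted p = 0.00563) and AT1G05675 by 1.12 ± 0.16 (adjusted p = 0.00191), with all 3 libraries of cat2 gox2 above all 3 of cat2 gox1. UGT73B3 was higher by 1.10 ± 0.29 with an adjusted p of 0.0487, also without overlap. That call held in 9 of 19 alternatives, with adjusted p up to 0.181 when replicate 3 of cat2 gox1 after high light was left out. The 2 lower members were UGT74D1, by a log2 difference of -0.93 ± 0.18 (adjusted p = 0.00904), and UGT76E11, by -0.76 ± 0.14 (adjusted p = 0.00818), again without overlap.

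Because replicate 2 of cat2 gox2 after high light had GOX2 at 121.8 CPM, the comparison was repeated without it. The differences were then 2.42 for UGT84A1 (adjusted p = 0.0182), 1.24 for UGT73C5 (adjusted p = 0.0164), 1.24 for AT1G05675 (adjusted p = 0.00272), -0.81 for UGT74D1 (adjusted p = 0.0419) and -0.66 for UGT76E11 (adjusted p = 0.0389), and UGT73B3 missed the threshold at 1.09 (adjusted p = 0.119). UGT73B3 also missed it with DESeq2's size factors (adjusted p = 0.054). Without replicate 2 of cat2 gox2 after high light, 27 members rose and 6 fell in cat2 gox2. Leaving out the 4 number 3 libraries kept all 6 calls and added 3 lower ones, for AT2G36780 (-1.05, adjusted p = 0.0254), UGT73C7 (-1.16, adjusted p = 0.0413) and UGT84A3 (-0.81, adjusted p = 0.039). UGT73C7 was also lower without the number 3 library of cat2 gox1 after high light alone, by -1.24 (adjusted p = 0.0272). An epidermis marker was lower in cat2 gox2 after high light (1 of 3), and its part in these differences was not tested.

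**Figure D4:**
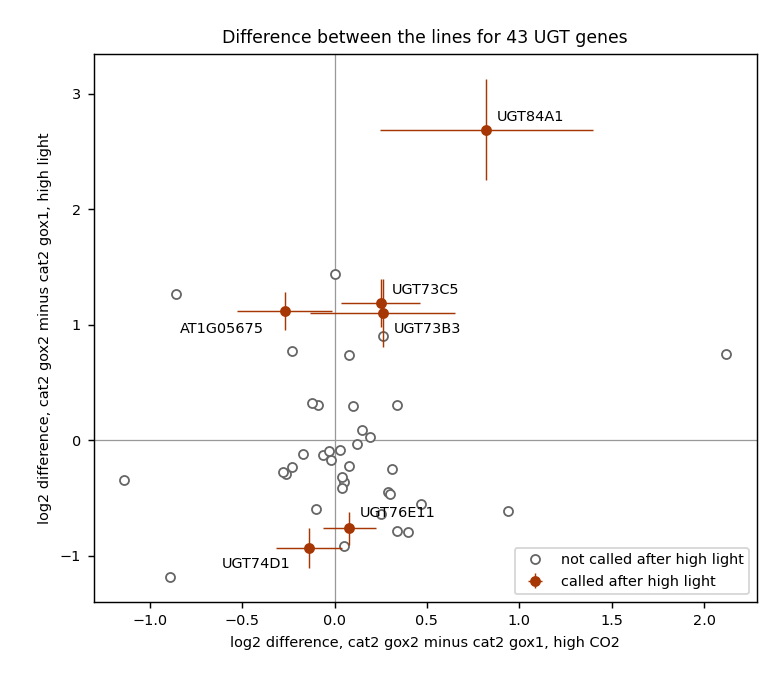
Log2 difference of cat2 gox2 minus cat2 gox1 under high CO2 (x axis) and after high light (y axis) for the 43 tested UGT genes, with approximate SE for the 6 genes called after high light (filled points). UGT84A1 stands highest at 2.69, and UGT74D1 and UGT76E11 lie below 0 at -0.93 and -0.76.

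Whether the light response differed between the lines was tested as an interaction, which 1.04% of all tested genes passed, 0.996% with a higher and 0.0422% with a lower response in cat2 gox2. No member passed in edgeR's test, 7 had an unadjusted p under 0.05, and DESeq2's test called 2. AT1G05675 rose more in cat2 gox2 by 1.39 ± 0.31 on the log2 scale in edgeR's fit (adjusted p = 0.0626), with an adjusted p of 0.0278 in DESeq2's. UGT76E11 rose less in cat2 gox2, by -0.84 ± 0.20 (adjusted p = 0.0841) in edgeR's fit and -0.84 (adjusted p = 0.00688) in DESeq2's. For UGT73C5 the interaction was 0.94 ± 0.30 (adjusted p = 0.215), for UGT74D1 -0.79 ± 0.25 (adjusted p = 0.218) and for UGT84A1 1.87 ± 0.74 (adjusted p = 0.395). In this fit, a light response that passed in 1 line and not in the other is not shown to differ between the lines for any member. The fit with the replicate number as a term is given with the alternatives.

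Many members are close relatives placed side by side, with 38 of the 51 in 15 groups of members at most 10000 bases apart. The row of UGT73B3, UGT73B2 and UGT73B1 on chromosome 4 rose together in both lines. So did UGT73B5 with UGT73B4, and the tested genes of the UGT73C row on chromosome 2. In some other groups neighbours did not rise together. Beside UGT74F2 and UGT74F1, this held for UGT71B6 and UGT71B1. In the row of UGT85A7, UGT85A2, UGT85A5 and UGT85A1, UGT85A5 rose with UGT85A1 in both lines, by the smaller amounts given above. UGT85A2 had 0.42 ± 0.20 and 0.47 ± 0.20 and UGT85A7 -0.13 ± 0.27 and -0.58 ± 0.28, not past the threshold, although UGT85A2 passed it in cat2 gox2 with DESeq2 (0.53, adjusted p = 0.0359). Reads that fit 2 relatives could have been counted for either, since the handling of such reads is not given in the sources used here. UGT73B5 and UGT73B4 share 92.3% of their aligned coding bases and also overlap as annotated, UGT73C5 and UGT73C6 share 91.4%, AT2G36770 and AT2G36780 share 91.3%, and UGT73B2 and UGT73B3 share 89.7%. Of all stretches of 50 bases in the coding sequences, 13.4% for UGT73B4, 12% for AT2G36770 and 7.02% for UGT73C6 occur in that of another UGT gene. For their partners UGT73B5, AT2G36780 and UGT73C5 the shares were 13.2%, 12% and 7.09%. Parts outside the coding sequences were not compared, and UGT73B4 lies within the annotated span of UGT73B5. After high light UGT73C6 had 42 counts in cat2 gox1 and 110 in cat2 gox2, beside 24067 and 52550 of UGT73C5. The part of misplaced reads in these counts was not tested. The values of UGT73B4, AT2G36770 and UGT73C6, and of their partners UGT73B5, AT2G36780 and UGT73C5, are thus less certain than those of UGT74F2 and UGT74F1. The latter share 84.1% of coding bases and no such stretch.

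Other genes around glucosylation were counted from lists chosen by gene name or locus, which were not tested as sets. Of all tested genes, 25.6% rose and 26.5% fell in cat2 gox1, or 52.1% together. In cat2 gox2 the shares were 27.7% and 29.2%, or 56.9% together. Tau glutathione transferases, which attach glutathione to reactive compounds, had 25 of 28 genes tested, of which 16 rose and 5 fell in cat2 gox1 and 16 rose and 6 fell in cat2 gox2. GSTU25 had log2 changes of 9.96 ± 0.57 and 10.15 ± 0.51, and GSTU26, which fell most, of -1.59 ± 0.21 and -1.22 ± 0.21. ABCC transporters, which carry conjugates into the vacuole, had 15 tested, with 10 rising and 1 falling in cat2 gox1 and 8 rising and 2 falling in cat2 gox2. ABCC3 rose most, by 3.23 ± 0.23 and 3.91 ± 0.24, and ABCC13 fell most, with -1.05 ± 0.15 and -0.99 ± 0.15. Of 5 tested CYP81D cytochrome P450 genes, 3 rose and 2 fell in both lines, with CYP81D11 at 10.08 ± 0.76 and 9.40 ± 0.65. CYP81D4 was at -1.14 ± 0.12 and -0.84 ± 0.12. Among UGT genes that are not members, 13 of 17 were tested, of which 7 rose and 3 fell in cat2 gox1 and 6 rose and 3 fell in cat2 gox2. Of the sucrose synthases and pyrophosphorylases that can supply UDP-glucose, 8 of 9 were tested, and 1 rose and 2 fell in cat2 gox1, whereas 2 rose and 1 fell in cat2 gox2. In that list the sucrose synthase gene SUS1 rose by 2.06 ± 0.19 and 2.23 ± 0.19. UGP2 fell in cat2 gox1 (-1.22 ± 0.22), and SUS6 fell in both lines (-0.88 ± 0.20 and -0.61 ± 0.20). Of the 4 UDP-glucose dehydrogenases, which use UDP-glucose to make UDP-glucuronic acid, 1 fell in cat2 gox1, and 1 rose and 2 fell in cat2 gox2.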

How the data were processed

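Stranded mRNA libraries of 12 leaf samples were measured. Per the submitters' processing notes, the authors trimmed reads with Trim Galore 0.3.3, aligned them with TopHat2 2.1.0 to TAIR10 and counted them per gene with featureCounts of Subread 1.4.6. Whole-number counts per gene, not normalized, are what the authors deposited. The sources used here give neither the strand setting nor the treatment of reads that align more than once. Left out were 2 rows that name no gene and hold text in place of counts. No per-sample column was left unused.

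The analysis used edgeR 4.0.16 in R 4.3.3 (TMM, filterByExpr at minimum count 10 and minimum total 15, 1 mean per group over all 12 libraries), which left 18967 genes with 99.96% of counts. The quasi-likelihood test was two-sided, adjusted by Benjamini-Hochberg over these genes, with a threshold of 0.05. The approximate SE is the log2 change over the root of F. Folds against groups without counts are bounds at 3 counts over the group, and with 1 to 3 counts ratios have exact 95% binomial intervals, all for counting error only. The steps were tested on simulated counts. DESeq2 1.42.0 and other settings were alternatives.

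Coordinates, names and sequences come from RefSeq's annotation of TAIR10.1, which held 32835 of the 33602 loci. Per the labels' protocols, the experiment was repeated to give the replicates, each a pool of 15 plants, and the labels do not say that a number marks the same repeat in every group. Values in every library are given for the largest rise and fall in each family among members called with the same sign in both lines, and for members called between the lines. UGT81A1 (MGD1, a galactolipid synthase) and GSTT1 (theta class), matched by a synonym, were left out of the gene lists. Of each list, at most 2 genes that rose and 2 that fell most were to be named. The members and lists were chosen with earlier results of these data known.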

Additional observations from a re-analysis of the deposited data

How the results depend on the processing

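Alternatives were DESeq2's size factors, its Wald test, no filter, a minimum count of 30, only the groups compared, the replicate block, the 4 number 3 libraries left out, and each library left out in turn. No called change changed its sign in any of them. Of the members called, 28 of 31 in cat2 gox1, 29 of 35 in cat2 gox2 and 5 of 6 between the lines after high light kept their call in all alternatives in which they were tested, and no member was called between the lines under high CO2 in any.

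With 1 library left out in turn, members called numbered 26 to 29 higher and 2 to 4 lower in cat2 gox1, 25 to 29 higher and 6 to 8 lower in cat2 gox2, and 3 to 5 higher and 2 to 3 lower between the lines after high light. The 2 lower in cat2 gox1 were found without replicate 2 of cat2 gox1 after high light, and there 1 member, AT1G05675, passed the interaction as higher (0 to 1 higher and 0 lower over these fits). With only the 2 groups compared, 2 members were lower in cat2 gox1. Without the 4 number 3 libraries, 5 were lower in cat2 gox2 than in cat2 gox1 after high light. DESeq2's test called 1 member higher and 1 lower in the interaction. For all genes the interaction count was 197 in edgeR's fit, 532 with DESeq2 and 38 without the 4 number 3 libraries. The cause was not tested.

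The labels give the groups the same replicate numbers without saying that a number marks a shared batch. Deviations of same-numbered libraries correlated at 0.24, 0.08 and 0.30 between the conditions of cat2 gox1, then at -0.14, 0.46 and 0.42 in cat2 gox2. Between the lines they correlated at 0.43, 0.50 and 0.76 for high CO2, then at -0.19, 0.06 and 0.23 for high light. The highest correlations with a differently numbered library were 0.04, 0.23 and -0.07 in cat2 gox1, then 0.33, -0.22 and 0.25 in cat2 gox2. Between the lines these were 0.50, 0.40 and -0.51, then 0.30, 0.01 and 0.15. The same number gave the higher value for number 3 in every pairing of groups, but not for numbers 1 and 2 throughout. Whether a number marks a shared repeat was not settled, and the main fit left the number out. With the number as a block (replicate block), members called numbered 27 higher and 7 lower in cat2 gox1, 30 higher (UGT76D1, UGT84A3 and UGT85A2 added) and 8 lower in cat2 gox2, 6 higher (UGT73B2 and UGT71D1 added) and 4 lower between the lines after high light, and 0 higher and 2 lower in the interaction, UGT71B1 at -0.74 (adjusted p = 0.0262) and UGT84A3 at -1.14 (adjusted p = 0.0417).

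Depth limits the low members: 1 count is 0.0397 to 0.0526 CPM, and UGT84A1, UGT73C6, UGT73D1 and UGT76E1 rest on few counts.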
